A study of Mus musculus with 6 samples.

Results

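Collagen chain genes were taken as the protein-coding genes whose mouse symbol has the form Col, a type number, a and a chain number. In all, 44 of the 53801 genes in the count files met this rule. RNA had been sequenced from ciCPCs, mouse cardiovascular progenitors induced with chemicals by cardiac reprogramming, which were passaged after colonies were picked on day 14. Wildtype cells of a mixed C57BL/6 and 129J/SvE background were grown in basal medium with BMP4, Activin A, CHIR99021 and SU5402 in both groups, and 3 libraries came from passage 3 and 3 from passage 20. The comparison addressed how long expansion changes these cells. Nothing in the labels says that the 3 replicates of a passage were separate cultures or that both passages came from the same colonies. The p-values therefore measure the spread between these libraries, which may be technical, and passage and culture or harvest cannot be told apart.

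Collagens are secreted or membrane-bound proteins built from 3 alpha chains that wind into a triple helix. The helix needs glycine at the first place of each repeat of glycine and a pair of other residues, and proline and lysine in the other places are hydroxylated in the endoplasmic reticulum before the chains fold. Fibrillar collagens form the cables of connective tissue, and FACIT collagens (fibril-associated collagens with interrupted triple helices) sit on their surface. Type IV chains make the sheet of the basement membrane, and type VI chains make beaded filaments around cells. In the heart, fibroblasts are a main source of the fibrillar chains, and type IV collagen surrounds cardiomyocytes and vessels.

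The repeat is visible in the coding sequences of GRCm38, where glycine codons (GGN) recur after each pair of other codons. The following 60-base stretches of 4 chains show a long unbroken helix at its start (Col1a1 and Col5a3) and the end of the longest block in a FACIT chain and a basement membrane chain, with every in-frame GGN codon in capitals, written 5′ to 3′.
Col1a1: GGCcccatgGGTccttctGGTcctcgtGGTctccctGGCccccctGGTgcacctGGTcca
Col5a3: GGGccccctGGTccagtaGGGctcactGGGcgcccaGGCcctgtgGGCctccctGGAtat
Col9a1: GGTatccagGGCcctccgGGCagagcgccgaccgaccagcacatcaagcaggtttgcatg
Col4a1: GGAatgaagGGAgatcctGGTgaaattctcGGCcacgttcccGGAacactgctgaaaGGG
In Col1a1 the stretch opened a block of 338 consecutive repeats that ran from codon 168 to codon 1181. The fibrillar genes carried such a block of 216 to 344 repeats, with the shortest in Col24a1 (216) and Col27a1 (217). The Col9a1 stretch ends a block of 113 repeats, after which no further GGN codon follows in the bases shown. In Col4a1 the block of 40 repeats breaks off and GGN codons return at other spacings. Basement membrane chains held 22 to 27 blocks each, the longest with 39 to 66 repeats, and no chain outside the fibrillar class had a block longer than 113.

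Total counts per library ranged from 11387738 to 17721788. Levels are given as CPM, in which the count of a gene is scaled to the total of its library after correction by the TMM factor. Means are followed by the SD (n = 3 for each passage). Passage 20 replicate 3 stood apart from the other libraries of its group, with a chi-square per degree of freedom of 10.6 and 8.72 against them, where the other pairs of one group gave 1.75 to 2.63. Of all 15143 genes tested, 74.3% had an adjusted p under 0.05 in the quasi-likelihood test of edgeR (Benjamini-Hochberg method), so a call alone says little here and sizes are given throughout. All 8 listed markers of cardiac progenitors were detected, with a summed level of 761 to 785 CPM at passage 3 and 641 to 709 CPM at passage 20. Of these, Mef2c and Nkx2-5 were 2.68-fold and 4.57-fold higher at passage 20, and Isl1 and Pdgfra were 8.44-fold and 2.45-fold lower.

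Most collagen chain genes were higher at passage 20. Of the 40 genes with enough counts for the test, 25 were higher (62.5%, against 37% of all genes tested), 11 were lower (27.5%, against 37.3%) and 4 did not pass. At least 2-fold changes were called for 20 higher members, where 13.4% of all genes were higher by that much, and for 7 lower members, where the share of all genes was 14.3%. The 20 became 16 with upper-quartile factors and 13 with scaling by library sizes only. The groups did not overlap in 37 of the 40 (77.5% of all genes tested). The median log2 fold change of the 40 was 0.83, beside -0.01 over all genes tested. Without passage 20 replicate 3, 27 members were higher and 11 lower. When counts were scaled by library sizes only, the median of all genes moved to -0.34, and 22 members were higher and 16 lower. Under that scaling the log2 fold changes of Col9a2, Col9a3 and Col7a1 turned from above to below 0, and these genes were called lower. The other 37 members tested kept their direction under each scaling tried.

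The share of all counts that fell in collagen chain genes needs no scaling between libraries. It was 2.49%, 2.64% and 2.60% in the passage 3 libraries and 4.64%, 4.36% and 4.14% in the passage 20 libraries. Every passage 20 library was above every passage 3 library. The means were 2.58 ± 0.0753% and 4.38 ± 0.254%, a 1.70-fold difference (exact permutation test, 2-sided, p = 0.1, the smallest that 3 against 3 can give). In bulk RNA, more collagen-producing cells and more collagen RNA per cell cannot be told apart.

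**Figure D1:**
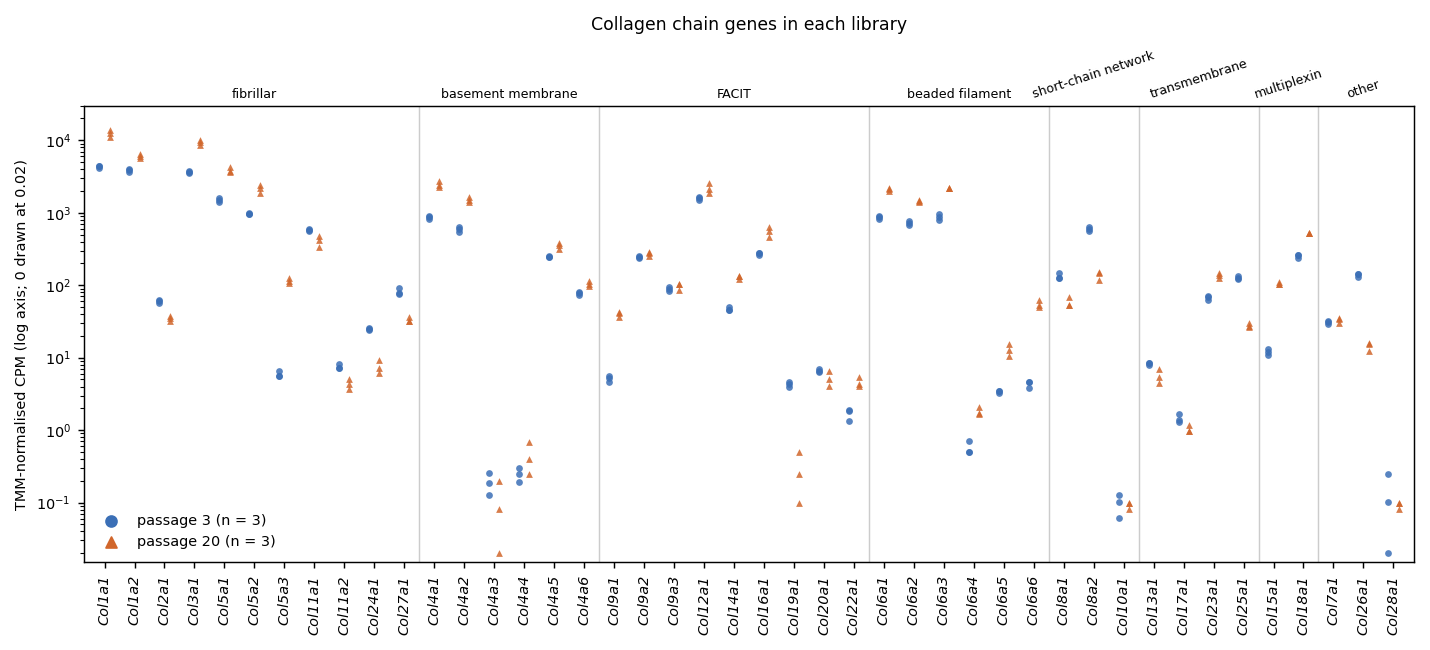
TMM-normalised CPM (log axis, 0 drawn at 0.02) of the 44 collagen chain genes in each library, by class, with circles for passage 3 (n = 3) and triangles for passage 20 (n = 3). Col1a1, Col1a2 and Col3a1 stood highest in both passages, and in 37 of the 40 tested genes the circles and triangles did not overlap.

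Among the fibrillar chains, the genes of types I, III and V were higher at passage 20 and those of types II, XI, XXIV and XXVII were lower. All 11 passed the test, 6 higher and 5 lower, with a median log2 fold change of 0.65. Over all genes tested, 74.3% passed, 37% higher and 37.3% lower. Col1a1 (ENSMUSG00000001506, chr11:94936224-94953042, plus strand, GRCm38) and Col1a2 (ENSMUSG00000029661, chr6:4504814-4541544, plus strand) encode the chains of type I collagen, the main protein of tendon, bone and scar. Col1a1 measured 4147, 4467 and 4423 CPM at passage 3 and 13790.2, 12485 and 11275 CPM at passage 20. Every passage 20 library lay far above the passage 3 libraries, with replicate 3 the lowest of its group. The log2 fold change was 1.53 ± 0.07 (SE), or 2.88-fold (adjusted p = 1.44e-08, edgeR's quasi-likelihood test, Benjamini-Hochberg adjustment). Col1a2 measured 3708, 4034 and 3904 CPM at passage 3 and 6491, 6158 and 5611 CPM at passage 20. Its groups did not overlap either, but the rise was smaller, 1.57-fold. Col3a1, whose product forms homotrimers that share fibrils with type I in stretchable tissue, measured 3580.4, 3721 and 3703 CPM at passage 3 and 10016, 9465 and 8600.1 CPM at passage 20. It was 2.55-fold higher, again with no overlap between groups.

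Type V collagen starts fibrils and limits their width, and its 3 genes were all higher. Col5a1 was at 1489.7 ± 90.4 CPM at passage 3 and 3882 ± 338 CPM at passage 20 (2.61-fold), and Col5a2 at 976 ± 16.3 and 2151 ± 263 CPM (2.20-fold). Both were abundant genes at passage 3. Col5a3 (ENSMUSG00000004098, chr9:20770050-20815067, minus strand), which encodes the chain found in fewer tissues, was not: it measured 5.56, 6.64 and 5.50 CPM at passage 3 and 126, 113 and 107 CPM at passage 20. All libraries of a passage were close to each other and the groups lay far apart. The change of 19.6-fold (log2 4.29 ± 0.10, SE) was the largest rise of the 40 members tested. Exons of Col5a1 overlap those of 2 non-coding genes on the other strand, which held 230 and 912 counts against 202455 for Col5a1.

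The fibrillar chains of cartilage were lower. Col2a1, the main collagen chain of cartilage, measured 56.0, 60.8 and 62.4 CPM at passage 3 and 35.7, 38.1 and 32.4 CPM at passage 20, and was 1.69-fold lower with no overlap. Col11a1, which sets fibril width in cartilage, was at 578 ± 18.5 and 413 ± 69.3 CPM (1.40-fold lower). Its partner Col11a2 was far less abundant, at 7.55 ± 0.439 and 4.37 ± 0.673 CPM (1.74-fold lower). Both fell by less than most other members that were called lower. Col24a1, a chain described in developing bone, measured 25.5, 24.7 and 23.9 CPM at passage 3 and 7.11, 9.23 and 6.24 CPM at passage 20, 3.30-fold lower. Col27a1, a chain of cartilage and developing skeleton, was at 81.6 ± 9.08 and 33.4 ± 2.37 CPM, 2.44-fold lower. Col24a1 and Col27a1 had the largest falls of the class, and in each the groups did not overlap.

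Markers of cartilage and bone cells were measured beside these chains. Over all genes tested, 37% were higher and 37.3% lower. Of 6 tested chondrocyte markers, 4 were higher and 2 lower, and their summed level over the whole list ranged from 73.2 to 81.9 CPM at passage 3 and from 49.9 to 74.0 CPM at passage 20. Most of that sum was Sox9. Acan, the core protein of the large cartilage proteoglycan, was at 0.933 ± 0.261 and 13.8 ± 1.59 CPM (14.5-fold higher), and the cartilage matrix gene Comp was 3.54-fold higher. Sox9, the transcription factor of cartilage cells, was at 59.7 ± 5.05 and 35.5 ± 14.1 CPM (1.66-fold lower), and Hapln1, which links proteoglycan to hyaluronan, was 6.50-fold lower. Matn1, Cnmd, Snorc and Ihh had too few counts for the test. Of 5 tested osteoblast markers, 2 were higher and 3 lower, with a median log2 fold change of -1.14. Their summed level over the whole list was lower with no overlap, at 63.2 to 69.5 CPM at passage 3 and 46.1 to 47.9 CPM at passage 20. Runx2 and Sp7, transcription factors of bone-forming cells, were 2.20-fold and 8.66-fold lower, and the bone matrix gene Ibsp was 13.8-fold lower. Spp1, which encodes osteopontin, and the phosphatase gene Alpl were 18.7-fold and 1.63-fold higher. Bglap, Bglap2 and Dmp1 had too few counts for the test. The part of such cells in the levels of Col2a1, Col11a1, Col24a1 and Col27a1 was not tested.

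All 4 tested type IV genes were higher at passage 20, beside 37% of all genes tested, and the paired genes had like changes. Col4a1 (ENSMUSG00000031502, chr8:11198423-11312826, minus strand) and Col4a2 (ENSMUSG00000031503, chr8:11312805-11449287, plus strand) encode the chains found in nearly all basement membranes. Col4a1 measured 819, 898 and 878 CPM at passage 3 and 2731, 2420.3 and 2247 CPM at passage 20. Col4a2 measured 550.0, 626 and 593 CPM at passage 3 and 1643, 1482 and 1411 CPM at passage 20. Both groups were tight and apart, and the rises were 2.85-fold and 2.56-fold. Col4a5 and Col4a6, on the X chromosome, encode chains of a second network found in smooth muscle and some epithelia. Col4a5 was at 249 ± 2.35 and 354 ± 36.1 CPM (1.42-fold) and Col4a6 at 76.7 ± 3.43 and 105 ± 8.82 CPM (1.37-fold). These rises were smaller, and that of Col4a6 did not pass when libraries were scaled by their size only (log2 0.13). Col4a3 and Col4a4, chains of the kidney filter and lung, were too low for the test, with 10 and 3 counts in all for Col4a3 at passages 3 and 20, and 13 and 14 for Col4a4.

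Type IV genes lie head to head in pairs. The annotated starts of Col4a1 and Col4a2 overlap by 22 bases (chr8:11312805-11312826, GRCm38.p6, plus strand), a stretch shown because it is exonic in both genes.
Col4a1 and Col4a2: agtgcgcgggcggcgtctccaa
Whether counting used the strand is not given in these sources, and reads in these 22 bases could belong to either gene. Col4a3 and Col4a4 start 71 bases apart. Between Col4a6 and Col4a5 lie 1308 bases, and the stretches upstream of each start follow, as RefSeq gives them on GRCm38.p6, with the motifs CCAAT and GGGCGG (or its complement CCGCCC) in capitals. The first is chrX:141475169-141475384 on the plus strand, and the second is chrX:141474077-141474326 on the minus strand.
Col4a5: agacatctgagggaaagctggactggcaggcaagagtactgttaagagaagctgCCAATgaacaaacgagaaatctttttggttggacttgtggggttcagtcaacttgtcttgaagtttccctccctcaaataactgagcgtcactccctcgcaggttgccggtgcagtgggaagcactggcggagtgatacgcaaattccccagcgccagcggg
Col4a6: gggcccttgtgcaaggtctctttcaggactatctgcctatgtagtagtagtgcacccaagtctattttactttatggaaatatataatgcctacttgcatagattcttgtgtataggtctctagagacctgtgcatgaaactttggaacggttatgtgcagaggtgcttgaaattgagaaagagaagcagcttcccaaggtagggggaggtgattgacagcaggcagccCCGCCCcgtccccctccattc
The Col4a5 stretch stops short of the annotated exons. It held a CCAAT from 196 to 192 bases before the RefSeq start, and a GGGCGG lay from 30 to 25 bases before that start, beyond the bases shown, and the Col4a6 stretch held a CCGCCC from 21 to 16 bases before it. CCAAT (the CCAAT box), GGGCGG (the GC box) and TATAAA (the TATA box) were searched on both strands in the 250 bases upstream of the start of 35 members with a RefSeq window, and matches of different motifs could overlap. CCAAT was found for 13 of the 35 (37.1%, against 37.5% of all 27025 genes with a window), GGGCGG for 21 (60.0%, against 35.4%) and TATAAA for 5 (14.3%, against 14.3%). GGGCGG stood before genes that rose, such as Col5a3 and Col6a6, and before genes that fell, such as Col8a1 and Col8a2. The 27025 genes include many with too few counts for the test here. The median share of G and C bases in the longest transcript was 55.9% for tested members and 49.6% over all genes tested. The part of either in the GGGCGG shares was not tested.

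All 6 type VI genes were higher at passage 20, beside 37% of all genes tested. Their median log2 fold change was 1.49, with the smallest rise in Col6a2 (log2 1.01 ± 0.05, SE). With scaling by library sizes only, Col6a1 (log2 0.95), Col6a2 (0.68) and Col6a3 (just under 1) were less than 2-fold higher, and upper-quartile factors gave 0.93 for Col6a2. Col6a1, Col6a2 and Col6a3 encode the chains of the common microfibril. Col6a1 measured 812, 870.2 and 902 CPM at passage 3 and 2175, 2117 and 1995 CPM at passage 20 (2.43-fold). Col6a2 was at 724 ± 35.6 and 1455 ± 34.0 CPM (2.01-fold) and Col6a3 at 867 ± 84.8 and 2175 ± 9.03 CPM (2.51-fold). Per kilobase of messenger RNA, mean levels of Col6a1, Col6a2 and Col6a3 were 210, 183 and 96.3 CPM at passage 3. At passage 20 they were 511, 368 and 242 CPM. Col6a4, Col6a5 and Col6a6 encode long chains resembling that of Col6a3, and lie in a row on chromosome 9 with gaps of 28.8 and 27.9 kb. Col6a6 (ENSMUSG00000043719, chr9:105687809-105828160, minus strand) measured 4.55, 3.87 and 4.59 CPM at passage 3 and 50.0, 62.1 and 52.5 CPM at passage 20, a 12.6-fold rise (log2 3.65 ± 0.12, SE). Col6a5 was at 3.38 ± 0.138 and 12.9 ± 2.48 CPM (3.78-fold), and Col6a4 was scarce, at 0.568 ± 0.120 and 1.83 ± 0.222 CPM (3.13-fold), with 30 and 59 counts in all. The neighbours on chromosome 9 thus moved the same way, with the largest rise in Col6a6. The rises of Col6a5 (log2 1.92 ± 0.16, SE) and Col6a4 (log2 1.65 ± 0.28, SE) had overlapping SE ranges.

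Of the 9 FACIT chains, 6 were higher, 1 was lower and 2 did not pass, with log2 fold changes from -3.92 to 2.97. The share called, 77.8%, was near the 74.3% over all genes tested, of which 37% were higher and 37.3% lower. Type IX collagen coats cartilage fibrils, and its 3 genes did not move alike. Col9a1 (ENSMUSG00000026147, chr1:24177610-24252684, plus strand) measured 5.25, 4.67 and 5.50 CPM at passage 3 and 41.9, 43.2 and 36.7 CPM at passage 20. It was 7.85-fold higher, with no overlap. Col9a2 measured 238, 249 and 246 CPM at passage 3 and 279.5, 284 and 251.5 CPM at passage 20, so that the lowest passage 20 library was just above the highest passage 3 library. This 1.11-fold rise passed narrowly at an adjusted p of 0.0287 (edgeR, quasi-likelihood method, Benjamini-Hochberg adjustment), and the call was lost when any 1 library other than passage 20 replicate 3 was left out. It was also lost with upper-quartile factors, with no filter on low counts and at a threshold of 0.01. With scaling by library sizes only, Col9a2 was called lower. Col9a3 was at 88.6 ± 5.67 and 97.6 ± 9.89 CPM and did not pass, with groups that overlapped. Without passage 20 replicate 3 it passed at a log2 fold change of 0.20, and with scaling by library sizes only it was called lower. It shares 234 exonic bases with Tcfl5 on the other strand, which held 355 counts against 7754 for Col9a3.

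Col19a1, expressed in muscle and neurons during development, showed the largest fall of the 40 members. It measured 4.30, 3.996 and 4.64 CPM at passage 3 and 0.0988, 0.496 and 0.246 CPM at passage 20, or 225 and 9 counts in all. The fold was 15.1 lower (log2 -3.92 ± 0.33, SE), and it rested on few counts: without passage 20 replicate 2 the log2 fold change was -4.53. Col19a1 and Col9a1 face each other on chromosome 1, with 9.2 kb between their ends, and moved in opposite directions. Col12a1, a FACIT chain of dense connective tissue and the most abundant of the class, was at 1582 ± 74.99 and 2189 ± 329 CPM (1.38-fold higher), and did not pass with scaling by library sizes only (log2 0.13). Col14a1, which regulates fibril assembly in tendon and skin, was at 47.3 ± 2.97 and 131 ± 7.73 CPM (2.76-fold). Col16a1, which links fibrils to cells and microfibrils, was at 275 ± 8.78 and 549.9 ± 85.6 CPM (2.00-fold), and Col22a1, a chain of the muscle-tendon junction, at 1.70 ± 0.321 and 4.59 ± 0.665 CPM (2.67-fold). All of these higher FACIT genes had groups that did not overlap. Col20a1 was at 6.64 ± 0.372 and 5.202 ± 1.26 CPM and did not pass. It was called lower with scaling by library sizes only (log2 -0.70), with upper-quartile factors (-0.44), with no filter on low counts (-0.40) and without passage 20 replicate 1 (-0.56). It overlaps BX649560.1 on the same strand, which held 1301 counts against 512 for Col20a1, so its level is uncertain.

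Both tested chains of the short-chain network class were lower, beside 37.3% of all genes tested. Col8a1 and Col8a2 encode type VIII collagen, which forms hexagonal networks under endothelium and in the cornea. Col8a2 (ENSMUSG00000056174, chr4:126286793-126314330, plus strand) measured 566, 629.7 and 595 CPM at passage 3 and 119, 148 and 152 CPM at passage 20. It was 4.27-fold lower with no overlap. Col8a1 measured 125, 145 and 124 CPM at passage 3 and 69.4, 53.9 and 54.2 CPM at passage 20, with passage 20 replicate 1 the highest of its group, and was 2.23-fold lower. Col10a1, the chain of hypertrophic cartilage, had 5 counts at passage 3 and 3 at passage 20, a ratio of pooled CPM of 1.04 lower with a 95% counting interval from 0.202 to 6.70. The summed level of 10 endothelial markers ranged from 23.8 to 27.4 CPM at passage 3 and from 20.5 to 22.6 CPM at passage 20. Of 5 tested, Erg and Vwf were 4.37-fold and 4.83-fold lower, Pecam1 and Egfl7 were 1.67-fold and 1.35-fold higher, and Tek, at 4.06 ± 0.788 and 3.04 ± 0.149 CPM, did not pass. Cdh5, Tie1, Esam and Cldn5 had too few counts for the test, and Emcn had none. The part of endothelial cells in the levels of Col8a1 and Col8a2 was not tested.

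Transmembrane collagens stay anchored in the cell membrane, and their members split. Col25a1 (ENSMUSG00000058897, chr3:130131501-130599877, plus strand), known from amyloid plaques and from motor axons in developing muscle, measured 120.2, 133 and 126 CPM at passage 3 and 29.8, 26.2 and 27.1 CPM at passage 20, 4.57-fold lower. Col13a1, a chain of the neuromuscular junction, was at 8.33 ± 0.301 and 5.64 ± 1.32 CPM (1.49-fold lower). Col23a1 went the other way, from 67.4 ± 3.55 to 137 ± 11.4 CPM (2.04-fold). Col17a1, the hemidesmosome chain of skin, was at 1.45 ± 0.182 and 1.05 ± 0.118 CPM and did not pass, although its groups did not overlap. It was called lower with scaling by library sizes only.

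Multiplexins are basement membrane proteoglycans that release antiangiogenic fragments, and both were higher, beside 37% of all genes tested. Col15a1 (ENSMUSG00000028339, chr4:47208161-47313167, plus strand) measured 10.9, 11.9 and 13.1 CPM at passage 3 and 103, 109.6 and 105 CPM at passage 20. It was 8.81-fold higher (log2 3.14 ± 0.08, SE). Col18a1, whose product releases endostatin, measured 236, 264 and 261 CPM at passage 3 and 532, 529 and 532 CPM at passage 20, 2.09-fold higher. Neither gene's groups overlapped. Of the remaining chains, Col26a1 (ENSMUSG00000004415, chr5:136741759-136883209, minus strand) measured 131, 141 and 144 CPM at passage 3 and 12.4, 16.2 and 15.4 CPM at passage 20. This was 9.43-fold lower (log2 -3.24 ± 0.09, SE), the largest fall after that of Col19a1. Col7a1, which makes the anchoring fibrils of skin, was at 30.5 ± 1.37 and 33.4 ± 2.99 CPM and did not pass, though it did without passage 20 replicate 3 (log2 0.19). With scaling by library sizes only it was called lower. Col28a1 had 6 counts at passage 3 and 3 at passage 20, a ratio of pooled CPM of 1.25 lower (95% counting interval 0.267 to 7.71).

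**Figure D2:**
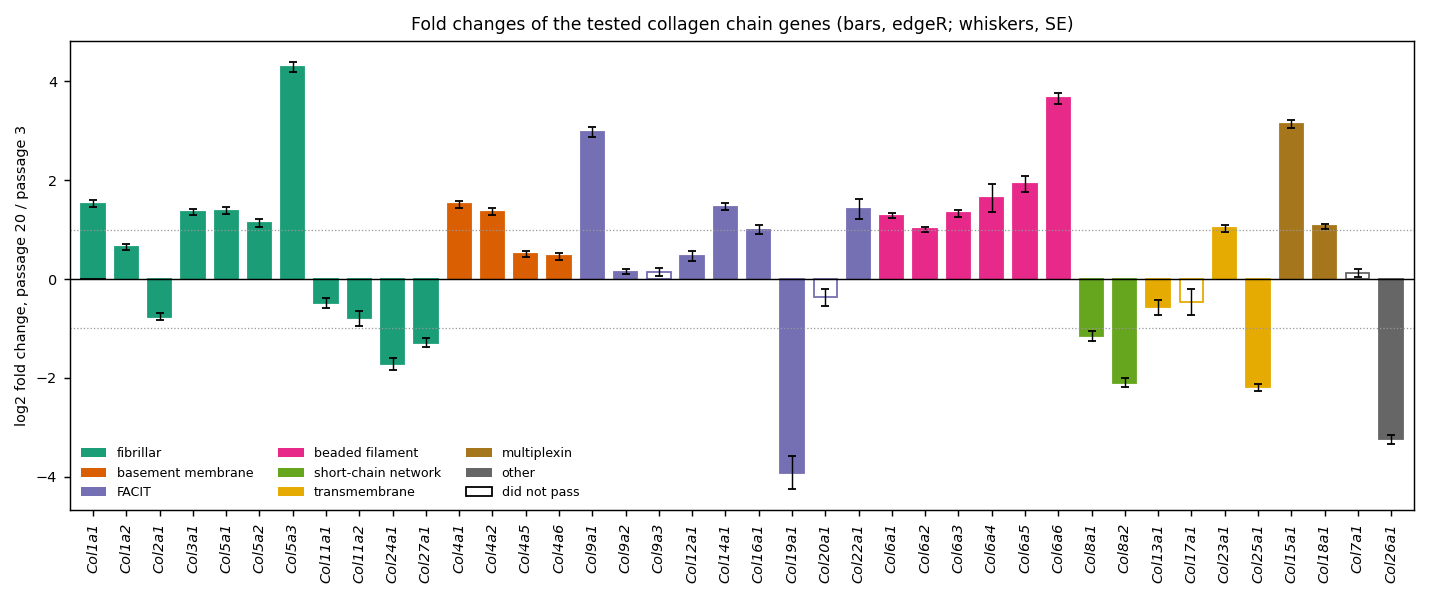
Log2 fold change of passage 20 over passage 3 for the 40 tested collagen chain genes (bars, edgeR; whiskers, SE), coloured by class, with open bars for the 4 that did not pass and dotted lines at a 2-fold change. Basement membrane, beaded filament and multiplexin chains all stood above 0 and short-chain network chains below it. With scaling by library sizes only, Col9a2, Col9a3 and Col7a1 lay below 0 and were called lower.

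Within the collagen counts, the shares of the classes also differed between passages. Fibrillar genes took 65.8 ± 0.155% of collagen counts at passage 3 and 70.3 ± 0.511% at passage 20, and basement membrane genes 7.75 ± 0.0958% and 9.02 ± 0.157%. The FACIT share was 9.82 ± 0.384% at passage 3 and a lower 6.67 ± 0.359% at passage 20, although 6 FACIT genes were higher by their own level. The short-chain network share was 3.17 ± 0.0943% at passage 3 and 0.407 ± 0.0512% at passage 20, the transmembrane share 0.887 ± 0.0106% and 0.352 ± 0.0486%, and that of the other class, nearly all Col7a1 and Col26a1, 0.736 ± 0.00799% and 0.0981 ± 0.00685%. The shares of these 6 classes and of multiplexins (1.16 ± 0.0323% and 1.30 ± 0.110%) did not overlap between passages (exact permutation tests, 2-sided, p = 0.1, adjusted p = 0.114 over 8 classes). The beaded filament share was 10.7 ± 0.520% and 11.8 ± 0.705%, with groups that overlapped (exact permutation test, 2-sided, p = 0.2). Col1a1, Col1a2 and Col3a1 alone held 51.8% of collagen counts at passage 3 and 56.8% at passage 20.

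**Figure D3:**
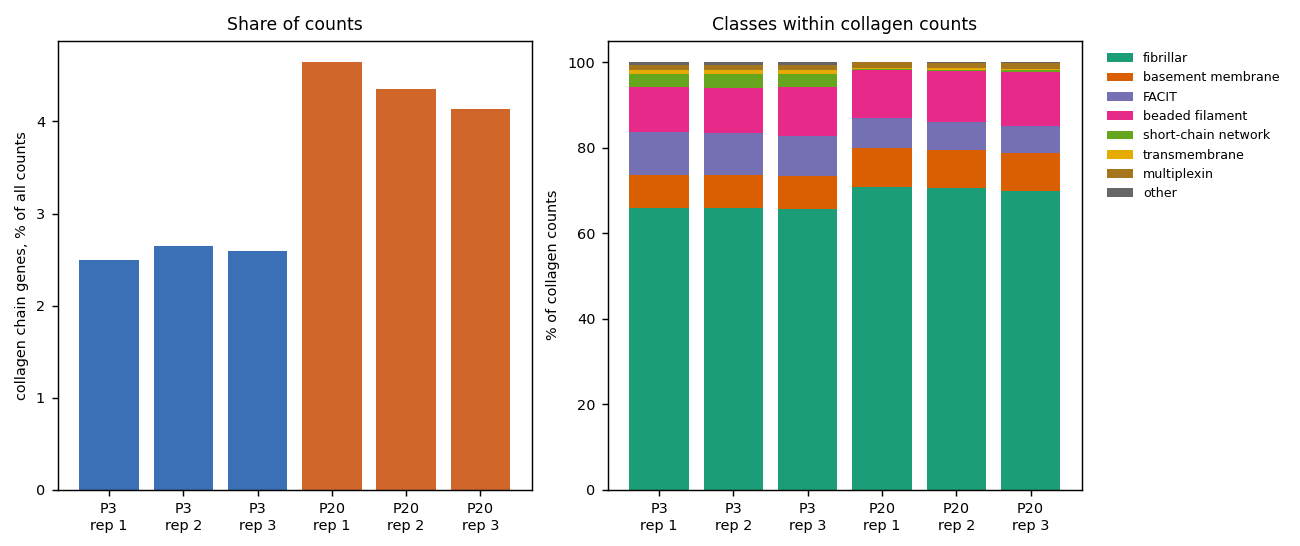
Share of all counts in collagen chain genes in each library (left, percent) and the share of each class within the collagen counts (right, percent of collagen counts). The 3 passage 20 libraries stood at 4.14% to 4.64% of all counts, above the passage 3 libraries at 2.49% to 2.64%, and the fibrillar part was larger and the short-chain network part smaller at passage 20.

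The ratios of 13 pairs of related chains were compared, most of them chains of the same collagen type. Ratios within a library do not depend on the scaling between libraries, and the pairs were compared on the log2 scale with exact permutation tests, in which 3 against 3 cannot go below p = 0.1 (adjusted p = 0.13). The log2 ratio of Col1a1 to Col1a2 was 0.16, 0.15 and 0.18 at passage 3 and 1.09, 1.02 and 1.01 at passage 20. All 3 passage 20 ratios lay above all passage 3 ratios. Per kilobase of messenger RNA the ratio of mean levels was 1.01 at passage 3 and 1.85 at passage 20. With merged exons, which are long for Col1a2, these ratios were 2.12 and 3.89, so the ratio itself depends on the gene model, while the difference between passages does not. Type I collagen usually holds a pair of Col1a1 chains for each Col1a2 chain.

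Several other pairs moved less than Col1a1 to Col1a2, or not at all beyond their spread. The log2 ratio of Col4a1 to Col4a2 was 0.55 ± 0.03 at passage 3 and 0.70 ± 0.03 at passage 20, that of Col5a1 to Col5a2 0.61 ± 0.07 and 0.86 ± 0.09, and that of Col6a1 to Col6a2 0.25 ± 0.01 and 0.53 ± 0.03. In these 3 pairs and in Col3a1 to Col1a1 (-0.24 ± 0.03 and -0.42 ± 0.04) the groups did not overlap, but the shifts were small, the largest of them 0.27 for Col6a1 to Col6a2. Col11a1 to Col11a2 was 6.23 ± 0.04 and 6.52 ± 0.04, also without overlap. Col4a5 to Col4a6 was 1.70 ± 0.06 and 1.75 ± 0.06, Col6a3 to Col6a1 0.01 ± 0.07 and 0.05 ± 0.06, and Col9a3 to Col9a2 -1.47 ± 0.07 and -1.48 ± 0.06. The groups of these 3 pairs overlapped (exact permutation tests, adjusted p = 0.433, 0.433 and 0.9).

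Other pairs also differed between passages. The log2 ratio of Col9a1 to Col9a2 was -5.47, -5.70 and -5.44 at passage 3 and -2.73, -2.71 and -2.77 at passage 20. Col9a1 thus stood closer to its partner at passage 20 but still below it, at 0.114 of its level per kilobase at passage 20. Col15a1 to Col18a1, chains of separate but related trimers, was at -4.39 ± 0.08 and -2.33 ± 0.05, and Col8a1 to Col8a2 at -2.18 ± 0.07 and -1.24 ± 0.40. These 3 pairs did not overlap between passages (exact permutation tests, p = 0.1, adjusted p = 0.13). Col4a3 to Col4a4 had too few counts to be read.

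**Figure D4:**
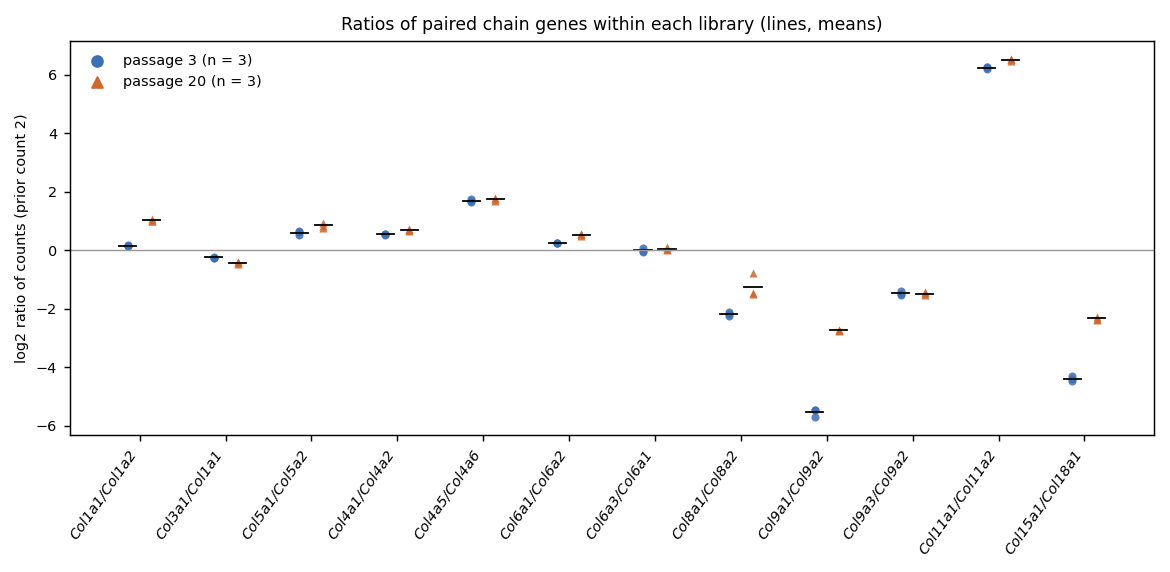
Log2 ratio of counts of the 2 chains of a pair (prior count 2) in each library, with circles for passage 3, triangles for passage 20 and lines for the means of 3. Col1a1/Col1a2, Col9a1/Col9a2, Col8a1/Col8a2 and Col15a1/Col18a1 stood higher at passage 20, and Col4a5/Col4a6, Col6a3/Col6a1 and Col9a3/Col9a2 overlapped between passages.

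The order of the chains was read from levels per kilobase of messenger RNA, which allow genes of different length to be compared. At passage 3 the highest mean levels were Col1a1 (733 CPM per kb), Col1a2 (726), Col3a1 (659) and Col6a1 (210.1). At passage 20 they were Col1a1 (2111 CPM per kb), Col3a1 (1682), Col1a2 (1138) and Col6a1 (511). With merged exons the order at passage 3 was Col1a1, Col3a1, Col1a2 and Col6a1. Col8a2, at 138 CPM per kb, ranked 8 of 44 at passage 3 and 17 at passage 20 (32.3), and Col26a1 ranked 16 (50.8) and then 29 (5.38). The ranks use annotated transcripts with the longest coding sequence, a choice made after the data were seen.

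Genes that modify, fold, cut, cross-link, bind or degrade collagen chains, or regulate their transcription, were taken from 8 lists. Of 98 such genes, 91 were tested, 56 were higher, 26 lower and 9 did not pass, with a median log2 fold change of 0.39. Over all genes tested, 37% were higher and 37.3% lower, and the counts of each list stand beside these shares. Of the 17 genes that hydroxylate, glycosylate or isomerise the chains, 16 were higher and 1 was lower, with a median of 0.97. Plod1, a lysyl hydroxylase, was at 156 ± 8.90 and 841 ± 47.9 CPM (5.38-fold), and P4hb, the beta subunit of prolyl 4-hydroxylase, at 1054 ± 44.5 and 3580.1 ± 271 CPM (3.40-fold). The alpha subunits P4ha1 and P4ha2, named after their values were seen, were 5.39-fold and 6.78-fold higher, and a further alpha subunit gene, P4ha3, was 1.97-fold lower (38.5 ± 0.496 and 19.7 ± 2.97 CPM).

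Chaperone and export genes were mostly higher, 7 of 10, with 1 lower, 2 not passing and a median of 0.43. Serpinh1, the collagen chaperone HSP47, was at 1775 ± 16.1 and 3508 ± 169 CPM (1.98-fold), and Creb3l1, a transcription factor of secretory matrix cells, was 1.92-fold higher. Mia3, which loads procollagen into export carriers, was 1.31-fold lower. Propeptide removal was split, with 3 higher, 3 lower and 1 not passing of 7 tested. Tll1, a tolloid-like proteinase, was at 25.1 ± 2.39 and 1.13 ± 0.199 CPM (22.4-fold lower), and Adamts14, an aminopropeptidase of procollagen, was 1.37-fold lower. Pcolce, the enhancer of carboxypropeptide removal, was 1.84-fold higher, and Adamts3, an aminopropeptidase related to Adamts14, was 1.65-fold higher.

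Of 6 cross-linking genes, 3 were higher, 2 lower and 1 did not pass. Lox, the lysyl oxidase that starts cross-links in fibrils, was at 628 ± 31.5 and 1961 ± 288 CPM (3.12-fold higher), and Loxl2 was 1.80-fold higher. Transglutaminase Tgm2 was 2.99-fold and Loxl1 1.12-fold lower. Among 14 proteins that bind fibrils, 9 were higher, 4 lower and 1 did not pass, with a median of 0.32. Thbs2 and the proteoglycan gene Bgn were 3.85-fold and 3.75-fold higher, while Kera, the corneal proteoglycan keratocan, was at 12.9 ± 0.855 and 0.187 ± 0.1005 CPM (66.3-fold lower) and Fmod 1.59-fold lower.

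Of 9 tested receptors, 7 were higher, 1 lower and 1 did not pass, with a median of 0.50. The collagen-binding kinases Ddr1 and Ddr2 were 1.55-fold and 1.53-fold higher, and the integrin Itga1 was 1.202-fold lower. Degradation genes had no common direction, with 5 higher, 5 lower and 2 not passing of 12 tested. Mmp14, a membrane collagenase, and the inhibitor Timp2 were 2.04-fold and 2.55-fold lower, and the inhibitors Timp1 and Timp3 were 2.37-fold and 1.58-fold higher. Regulators of collagen transcription were more often lower, 9 of 16, with 6 higher, 1 not passing and a median of -0.56. Sp1, which binds GC-rich promoters, was 1.79-fold higher, and Scx, a tendon factor, was at 5.64 ± 0.545 and 25.5 ± 5.43 CPM (4.51-fold higher). Twist1 was 2.16-fold lower, and Sp7, the osteoblast factor osterix, was at 15.8 ± 0.845 and 1.80 ± 0.541 CPM (8.66-fold lower).

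**Figure D5:**
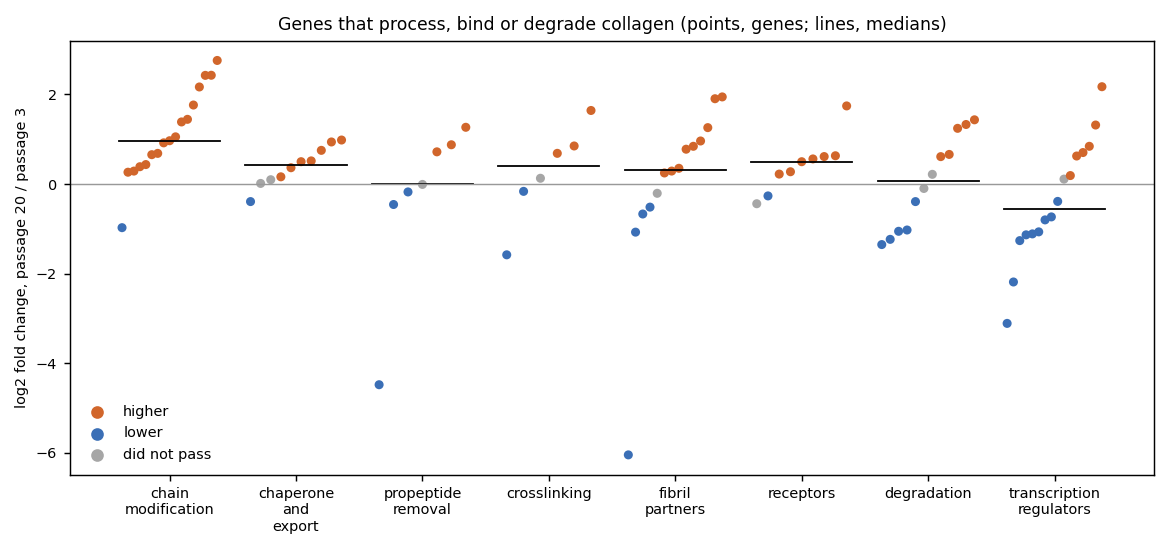
Log2 fold change of passage 20 over passage 3 for each tested gene of the 8 lists (points; lines, list medians), in orange where higher, blue where lower and grey where the test was not passed. The chain modification list stood almost entirely above 0 (16 of 17 higher), and the transcription regulator list had its median at -0.56.

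Markers of other cell types that make collagen also moved, as did most genes tested (37% higher and 37.3% lower). Of 8 tested fibroblast markers, 5 were higher and 3 lower, with a summed level of the list of 2461 to 2513 CPM at passage 3 and 2838 to 3302 CPM at passage 20, and S100a4 had no counts. Most of that sum was Postn, at 1374 ± 25.9 and 1630.5 ± 209 CPM. Lum and Dcn, fibril-binding proteoglycans that the fibroblast and fibril lists share, were 2.39-fold and 1.95-fold higher, and Pdgfrb and Prrx1 were 1.60-fold and 1.45-fold lower. Markers of parietal endoderm, a cell type rich in type IV collagen, were split at 3 higher, 3 lower and 1 not passing, and their sum went from 2454 to 2563 CPM at passage 3 to 3946 to 4435 CPM at passage 20, mostly from Sparc, at 1865 ± 47.0 and 3198 ± 235 CPM. Of that list, the laminin genes Lamb1 and Lama1 were 2.48-fold higher and 1.60-fold lower, and Thbd was 3.52-fold lower. Of 8 epithelial markers, 7 were higher, with sums of 106 to 111 CPM and 182 to 212 CPM, among them the adhesion genes Cdh1 (4.93-fold) and Epcam (4.04-fold), and Krt14 was 16.1-fold lower. Smooth muscle markers were mostly lower, with 1 higher, 5 lower and 2 not passing, and sums of 964 to 1037 CPM and 901 to 931 CPM. Most of that sum was Acta2, with mean levels of 794 CPM at passage 3 and 786 CPM at passage 20. Acta2 did not pass (log2 -0.01 ± 0.05, SE). Mylk and Synpo2 were 7.07-fold and 2.51-fold lower, and Cnn1 was 1.29-fold higher. The part of these cell types in the collagen levels was not tested.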

How the data were processed

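Total RNA of 6 ciCPC libraries was sequenced, per the labels' protocols, after column purification with DNase digestion and a standard Illumina library protocol. The authors deposited whole-number read counts per gene for each library, which were used as deposited. Per the submitters' processing notes, HISAT2 2.0.5, SAMtools, HTSeq and DESeq2 were used with GRCm38. What each tool did, and which annotation and strand setting were used for counting, is not given in these sources. No molecular identifiers are named, so counting intervals cover counting error only.

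Gene names, positions and coding sequences were read from GENCODE M21 (GRCm38), where 53706 of 53801 identifiers were found. The other 95 held 0.00623% of counts. After filterByExpr, 15143 genes remained. TMM factors were 1.12 to 1.13 for passage 3 libraries and 0.873 to 0.917 for passage 20 libraries. Testing used the robust quasi-likelihood method of edgeR 4.0.16 (R 4.3.3), at a common biological coefficient of variation of 7.05%. Benjamini-Hochberg adjustment ran over all genes tested, and calls were made at 0.05. SE is the absolute log2 fold change divided by the square root of the F statistic. A prior count of 2 entered the log2 ratios. Shares and ratios were compared by 2-sided exact permutation tests over libraries. Promoter windows came from RefSeq on GRCm38.p6. Repeat blocks are runs of at least 5 repeats of a GGN codon and 2 further codons.

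All 44 collagen chain genes were named, and of each other list up to 2 tested genes per direction with the smallest adjusted p. Other listed genes that are named, such as P4ha1, P4ha2 and those given as marker values, were picked with their values in view. All members and lists had been chosen with earlier results of these data known. Alternatives tried were scaling by RLE or upper-quartile factors or by library sizes only, other tools (DESeq2 1.42.0 and limma-voom with limma 3.58.1), no filter or one of 1 CPM in 3 libraries, a threshold of 0.01, a replicate block, GC and length offsets (mgcv 1.9.3), both together, and each library left out in turn. Levels per kilobase of the transcript with the longest coding sequence were added after seeing the data, beside merged exons.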

Additional observations from a re-analysis of the deposited data

How the results depend on the processing

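Across 17 alternatives, 660 of 680 fits of single members kept their direction and side of the threshold, and 33 of 40 members did so in all 17. With library sizes only, Col9a2 (-0.18), Col9a3 (-0.19) and Col7a1 (-0.21) had log2 fold changes below 0 and were called lower. Under that scaling 13 members were higher at least 2-fold instead of 20, and calls over all genes were 29.9% higher instead of 49.8%. Upper-quartile factors gave 24 higher and 12 lower members, as did testing without the low-count filter, where the median of all genes was -0.10. DESeq2, limma-voom, RLE factors, at least 1 CPM in 3 libraries and GC and length offsets each gave 25 higher and 11 lower. Leaving out 1 library gave 24 to 27 higher and 11 to 12 lower members, and 17 to 20 higher at least 2-fold. The log2 ratio of Col9a3 to Col9a2 differed between passages by -0.043 to 0.028 when 1 library was left out. Same-numbered libraries did not deviate together (Pearson r of 0.01, -0.03 and 0.05 across 15143 genes), so replicate numbers were not taken to pair the samples. With the replicate block, 25 members were higher and 11 lower, and likewise with the block and the GC and length offsets. Counts of 3 to 14 per passage left Col4a3, Col4a4, Col10a1 and Col28a1 untested, and a difference there was not detectable at this depth.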
